A study of Macaca fascicularis with 34 samples.

Results

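HOX genes were followed by cluster and by paralog number across single cells of early cynomolgus monkey embryos and fetal male gonads. The members were taken by name alone: every row of the expression table whose human symbol is HOX with a cluster letter from A to D and a number. This gave 35 of the 28551 genes in the table. Cluster A, on chromosome 3, held 10 of them, cluster B, on chromosome 16, held 10, cluster C, on chromosome 11, held 9, and cluster D, on chromosome 12, held 6. By paralog number, 11 members were numbered 1 to 4, 10 were numbered 5 to 8 and 14 were numbered 9 to 13.

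HOX genes encode homeodomain transcription factors that give cells of the trunk their position along the head to tail axis. They sit in clusters in which low-numbered genes lie at the 3′ end and are switched on earlier and nearer the head, and high-numbered genes follow at the 5′ end, later and nearer the tail, an order called colinearity. In gastrulation they are first transcribed in and around the primitive streak and its mesoderm, where CDX factors and WNT and FGF signals act on them, and their proteins bind DNA together with PBX and MEIS cofactors.

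The study profiled 34 cells of Macaca fascicularis (subspecies fascicularis) by SC3-seq, a method that amplifies cDNA of a single cell and reads the 3′ ends of transcripts. Of these, 25 came from whole embryos: 3 cells at embryonic day 13 (E13), 1 at E14, 11 at E16, 2 at E17 and 8 at E20. The other 9 came from gonads of males: 6 at E36, 1 at E47 and 2 at E55. The labels name no treatment, no cell type and no animal, so cells cannot be counted as replicates, each stage is 1 sample, and no difference is given a p-value; standard deviations (SD) show the spread between cells of a stage.

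The cells held between 472189 and 3556592 reads, fewest at E13. Levels are given as RPM, the share of a cell's reads that fall on a gene on a fixed scale, and a gene counted as detected in a cell at 15 RPM or more. Since no cell type was labelled, cells were clustered on 2000 variable genes without any HOX gene. Of the 34 cells, 26 formed a germ-cell-like cluster led by NANOG, SOX15 and TFAP2C, in which 11 of 14 germ cell markers had a median at or above 15 RPM, and 8 formed a mesoderm-like cluster (E16 cell 8 and E20 cells 1 to 7) led by HAPLN1, FN1 and HAND1, in which 6 of 10 mesoderm markers and 6 of 14 germ cell markers did. The summed level of the 10 mesoderm markers ran from 349.2 to 6881.7 RPM in the mesoderm-like cells and from 2.90 to 1045.5 RPM in the germ-cell-like cells, where MSGN1 was at 0. The 14 germ cell markers summed to between 662.5 and 3453.1 RPM in the mesoderm-like cells and to between 2961.2 and 11690.2 RPM in the others. With another linkage rule (average in place of Ward), E17 cell 2 also joined the mesoderm-like cells. E17 cell 2 carried 6 of 10 mesoderm markers and 10 of 14 germ cell markers at 15 RPM. Its HOX sum was the lowest of all cells, at 5.72 RPM. Some cells carried further markers: E16 cell 8 had the endoderm genes TTR at 3099.5 RPM and APOA1 at 1430.1 RPM and E20 cell 1 had the endothelial gene CDH5 at 1202.2 RPM. E16 cell 8 and E20 cells 1, 4 and 5 went partly against their cluster's name. E20 cell 1 carried 5 of 14 germ cell markers and 3 of 10 mesoderm markers at 15 RPM, with T at 0.687 RPM. For E20 cell 4 these counts were 8 of 14 and 4 of 10. E16 cell 8 carried 10 of 14 germ cell markers and 9 of 10 mesoderm markers at 15 RPM. Its 8 endoderm markers summed to 5448.6 RPM, above the 2599.7 RPM of its mesoderm markers. E20 cell 5 carried 9 of 14 germ cell markers and 5 of 10 mesoderm markers at 15 RPM. Those germ cell markers included NANOG (534.2 RPM), SOX15 (271.3 RPM), SOX17 (235.9 RPM) and TFAP2C (191.3 RPM). E20 cells 1 to 7 share a code in their sample titles that no other stage has, while E20 cell 8 shares its code with E16; what the code stands for is not stated, so within E20 it cannot be told apart from the cell class.

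Transcripts of most HOX genes were found in at least 1 cell, and fewer of the genes reached 15 RPM in 3 or more cells. Of the 35 members, 32 had a read and 28 reached 15 RPM in at least 1 cell; among all genes of the table with any read, 68.6% did. In 3 or more cells 16 members reached 15 RPM, a count for which no share over all genes was computed. HOXB13, HOXC13 and HOXD12 had no read in any cell, which allows a level of up to 0.0468 RPM over all cells. HOXA4, HOXA6, HOXC10 and HOXC12 had reads but stayed under 15 RPM, and the highest of these values was 12.0 RPM for HOXA4 in E20 cell 4. Detection reached 10 of 11 genes of paralogs 1 to 4, 9 of 10 of paralogs 5 to 8 and 9 of 14 of paralogs 9 to 13. By cluster it reached 8 of 10 genes in A, 9 of 10 in B, 6 of 9 in C and 5 of 6 in D. For 27 members the cell with the highest level was an E20 cell. E20 gave 8 of the 34 cells, and the share of all genes that were highest there was not computed.

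**Figure D1:**
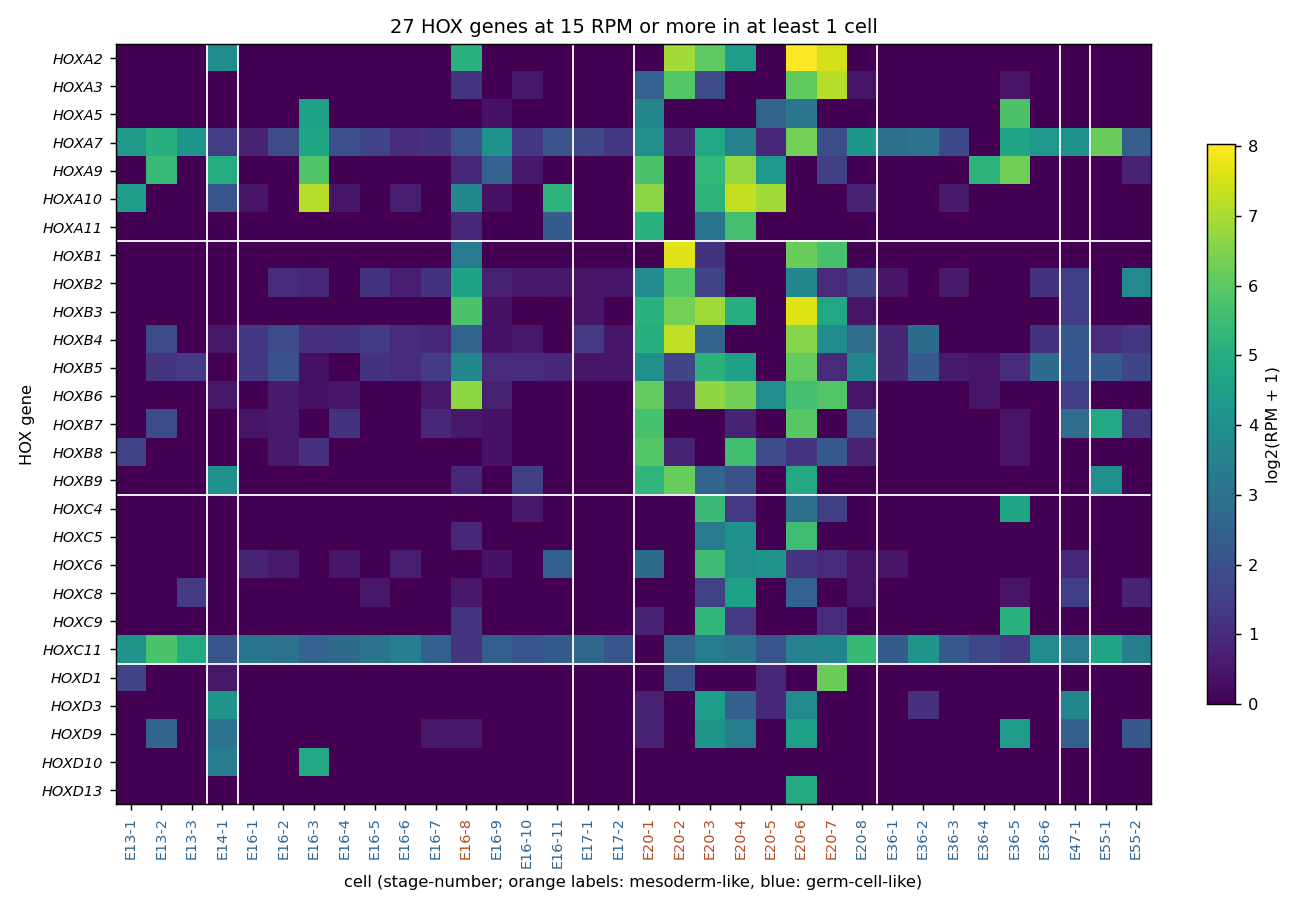
Level of 27 HOX genes that reached 15 RPM in at least 1 cell, as log2(RPM + 1), with genes in rows ordered by cluster and number and the 34 cells in columns ordered by stage. The bright cells are mostly E20 cells 1 to 7 and E16 cell 8, while HOXA7 and HOXC11 run as faint bands through nearly all columns.

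HOX transcripts were concentrated at E20. The summed level of all members in the 8 E20 cells, numbered 1 to 8, was 539.6, 1398.5, 724.2, 631.8, 182.9, 1851.7, 1035.1 and 84.8 RPM, a mean of 806.1 ± 599.2 RPM (SD, n = 8 cells). In the 11 E16 cells the lowest sum was 9.76 RPM, the median 14.5 RPM and the highest 323.5 RPM, with a mean of 71.1 ± 115.9 RPM (SD, n = 11 cells). The ranges overlapped through E16 cells 3 and 8, at 283.7 and 323.5 RPM, and through E20 cells 5 and 8; the other 6 E20 cells lay above every E16 cell. With the reads of each stage pooled, HOX genes took 735.3 RPM at E20 (exact Poisson 95% interval 720.2 to 750.8) and 79.4 RPM at E16 (76.1 to 82.8). Reads were not tagged by molecule, so these intervals, and every limit set by a count of 0, cover counting error only. The 2 stages' means of the summed level differed 11.3-fold, and 12.9-fold without HOXA7 and HOXC11.

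The other stages stayed low. The 3 E13 cells had sums of 61.4, 139.2 and 47.7 RPM, the E14 cell 110.4 RPM, and the 2 E17 cells 10.5 and 5.72 RPM. E20 cells 1 to 7 together held 83.7% of the summed HOX RPM of the 25 embryo cells. Detected genes were also most numerous at E20 on average, with 11, 8, 13, 11, 3, 14, 7 and 2 HOX genes in cells 1 to 8. The E16 cells had 0 to 5 and both E17 cells 0. Within E20 these numbers did not follow the sums. Cells 2 and 7 had higher sums but fewer detected genes than cells 1, 3 and 4. With every cell thinned to 472189 reads the E20 mean was 8.13 genes, against 8.63 unthinned, and the E16 mean was 1.09 both ways.

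**Figure D2:**
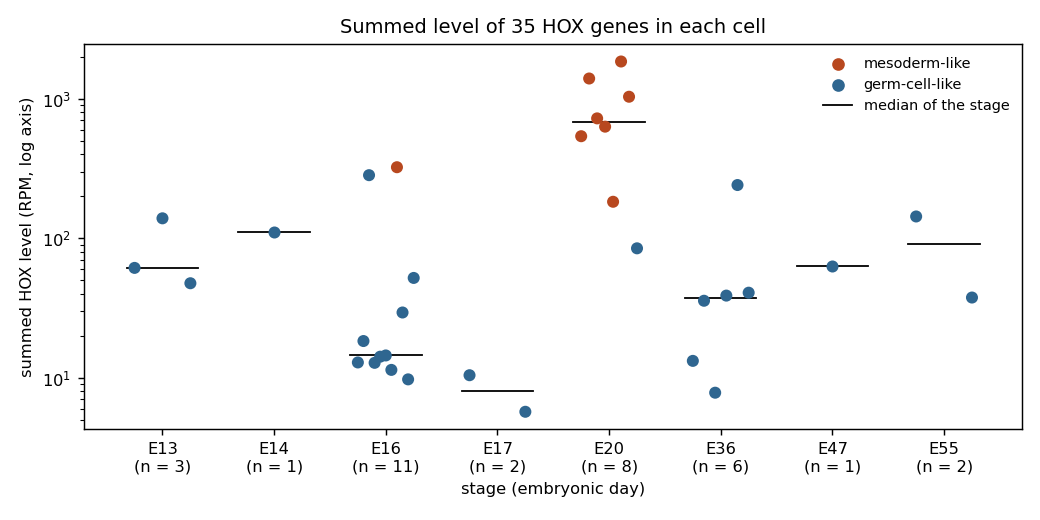
Summed level of 35 HOX genes in each cell (RPM, log axis) by stage; points are cells, coloured by cluster membership, and black lines are stage medians. The 7 mesoderm-like E20 cells lie between 182.9 and 1851.7 RPM, and the E16 median is 14.5 RPM.

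The E20 cells differed from each other in which end of the clusters they transcribed. Paralogs 1 to 4 made up 94.3% of the summed HOX RPM in E20 cell 2, 77.9% in cell 6 and 92.2% in cell 7. In the remaining mesoderm-like E20 cells this share was 15.7% in cell 1, 49.0% in cell 3, 12.7% in cell 4 and 0.922% in cell 5. Paralogs 9 to 13 ran the other way, at 5.39%, 4.89% and 1.44% of the sum in cells 2, 6 and 7, and at 42.6%, 20.8%, 53.5% and 77.4% in cells 1, 3, 4 and 5. Paralogs 5 to 8 took 0.317%, 17.2% and 6.40% of the sum in cells 2, 6 and 7 and 41.8%, 30.2%, 33.8% and 21.7% in cells 1, 3, 4 and 5, so their shares were also lower in the first 3 cells. Cell 5, with the highest share of paralogs 9 to 13, is the cell with 9 germ cell markers, whose part in this was not tested. In RPM, paralogs 1 to 4 summed to 1318.7, 1441.9 and 954.0 in cells 2, 6 and 7 and to at most 354.8 in the other E20 cells. Paralogs 5 to 8, in RPM, overlapped: they summed to 4.43, 319.3 and 66.2 in cells 2, 6 and 7 and to 225.4, 218.6, 213.6 and 39.6 in cells 1, 3, 4 and 5. Paralogs 9 to 13 summed to at most 90.5 RPM in cells 2, 6 and 7 and to between 141.6 and 337.7 RPM in cells 1, 3, 4 and 5. E16 cell 8, the mesoderm-like cell of that stage, had 57.8% in paralogs 1 to 4 and 6.09% in paralogs 9 to 13.

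**Figure D3:**
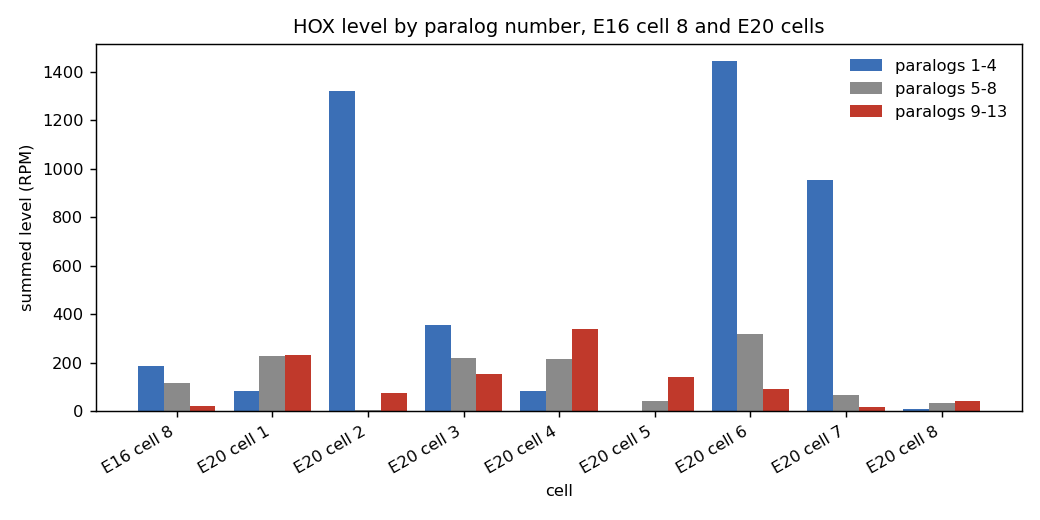
Summed level (RPM) of paralogs 1 to 4, 5 to 8 and 9 to 13 in E16 cell 8 and in each of the 8 E20 cells; each bar is 1 cell. Paralogs 1 to 4 reach 954.0 to 1441.9 RPM in E20 cells 2, 6 and 7, and paralogs 9 to 13 are the tallest bars in E20 cells 1, 4, 5 and 8.

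Among paralogs 1 to 4, several genes were concentrated in the same 3 cells. HOXA2, which patterns the hindbrain and the second branchial arch, measured 0, 118.9, 65.2, 21.8, 0, 259.4, 181.8 and 0 RPM in E20 cells 1 to 8, highest in cells 2, 6 and 7. HOXA3, needed for pharyngeal organs, measured 4.81, 58.4, 2.56, 0, 0, 66.0, 140.8 and 0.369 RPM in the same order, again with cells 2, 6 and 7 on top. HOXB1, a hindbrain patterning gene at the 3′ end of cluster B, was at 198.7, 72.2 and 50.4 RPM in cells 2, 6 and 7 and at most 1.28 RPM in the other 5 E20 cells, with no overlap.

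The other low-numbered genes of cluster B were less restricted. HOXB3 measured 33.7, 80.5, 117.6, 30.8, 0, 195.4, 27.04 and 0.369 RPM in E20 cells 1 to 8, so 6 of 8 cells were above 15 RPM and cells of both kinds were among them. HOXB4 was at 31.6, 152.2 and 94.0 RPM in cells 1, 2 and 6 and at most 13.99 RPM in the rest. HOXB2 passed 15 RPM in E20 cell 2 (59.1 RPM) and E16 cell 8 (24.2 RPM). Clusters C and D gave a few isolated cells in this class. HOXC4 reached 43.5 RPM in E20 cell 3, HOXD1 reached 73.7 RPM in E20 cell 7, and HOXD3 reached 21.1 RPM in E20 cell 3 and 17.3 RPM in the E14 cell.

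Paralogs 5 to 8, whose best-known role is in the cervical and thoracic trunk, were led by HOXB6. HOXB6 measured 67.4, 0.739, 101.6, 78.2, 14.3, 48.3, 57.8 and 0.369 RPM in E20 cells 1 to 8 and 99.3 RPM in E16 cell 8. It was low in cell 2, the cell with the largest share of paralogs 1 to 4, and high in cells 6 and 7. HOXB5 measured 15.1, 2.22, 34.5, 23.3, 0, 68.1, 0.933 and 11.8 RPM. HOXB7 was detected in E20 cells 1 and 6, at 50.9 and 59.9 RPM, and HOXB8 in cells 1 and 4, at 59.1 and 47.4 RPM. HOXC6 was highest in cell 3, at 45.4 RPM, with 15.04 and 16.9 RPM in cells 4 and 5. HOXC5 was at 46.3 RPM in cell 6 and 15.8 RPM in cell 4, and HOXC8 reached 22.6 RPM in cell 4. HOXA5 did not exceed 11.7 RPM in any E20 cell, and HOXA6 had no read there, which allows up to 0.247 RPM over the 8 cells. RefSeq gene models of HOXA4, HOXA5 and HOXA6 each overlap that of HOXA3 in the assembly T2T-MFA8v1.1. In all, 16 of the 35 members overlap another HOX model there, and how the deposited counting divided such reads is not given.

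Paralogs 9 to 13, genes of the lumbar to caudal trunk, limbs and reproductive tract, were led by HOXA10 and HOXA9 of cluster A. HOXA10 measured 99.0, 0, 35.2, 159.5, 119.7, 0, 0 and 0.738 RPM in E20 cells 1 to 8. Cells 1, 3, 4 and 5 were all above 35 RPM, and cells 2, 6 and 7 had no read. HOXA9 followed the same cells, at 52.9, 0, 38.4, 106.8, 18.5, 0, 1.87 and 0 RPM. HOXA11 was detected in cells 1 and 4, at 33.7 and 49.6 RPM. HOXB9 did not follow the cluster A genes: it was at 37.8, 70.2 and 27.9 RPM in cells 1, 2 and 6 and at most 5.11 RPM in the rest. HOXC9 reached 37.7 RPM in cell 3, and HOXD9 reached 17.3 RPM in cell 3 and 22.5 RPM in cell 6. HOXD13, the last gene of cluster D, which acts in digits and the genital region, was at 29.3 RPM in cell 6 and at 0 in the other 7 E20 cells, so the cell with the highest HOX sum held both ends of the numbering.

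Correlations across the 8 E20 cells were computed for the 18 members that reached 15 RPM in at least 2 of them; they are descriptive, from few cells that share library scaling, and carry no p. The median Pearson r of log2(RPM + 1) was 0.77 over the 15 pairs within paralogs 1 to 4, and the lowest of these was 0.46. It was 0.35 over 21 pairs within paralogs 5 to 8 and 0.28 over 10 pairs within paralogs 9 to 13. Pairs between these 2 classes had a similar median, 0.29 over 35 pairs, so they were no less alike across the classes than within them. Between paralogs 1 to 4 and 5 to 8 it was 0.0059 over 42 pairs, and between paralogs 1 to 4 and 9 to 13 it was -0.21 over 30 pairs. HOXA3 and HOXB1 had r = 0.93, HOXA9 and HOXA10 had 0.95, and HOXA10 and HOXB1 had -0.79. With all classes pooled, sitting in the same cluster made little difference to the median. It was 0.20 over 50 pairs within a cluster and 0.22 over 103 pairs between clusters. Within paralogs 9 to 13, pairs among HOXA9, HOXA10 and HOXA11 had r from 0.75 to 0.95. The pairs of that class between clusters had r from -0.11 to 0.38. In the other classes the ranges within and between clusters overlapped.

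The 3 cells rich in paralogs 1 to 4 also held several, but not all, of the listed transcripts of the primitive streak and presomitic mesoderm. T (brachyury, the streak and notochord factor) was at 4380.9, 1655.7 and 3593.1 RPM in E20 cells 2, 6 and 7 and at 0.687, 193.7, 10.5, 244.4 and 426.8 RPM in cells 1, 3, 4, 5 and 8, with no overlap. MSGN1, a presomitic mesoderm factor, was at 1414.0, 618.8 and 1470.6 RPM in cells 2, 6 and 7 and at most 0.843 RPM in the rest. WNT3A, a posterior growth signal, was at 214.2, 541.2 and 198.6 RPM there and at most 2.56 RPM elsewhere at E20. FGF4 showed the same 3 cells, at 254.9, 494.9 and 737.7 RPM, against at most 10.9 RPM. CDX1, a caudal-type regulator of HOX genes, was at 1132.5, 524.9 and 586.6 RPM, with 145.7 RPM in cell 3 and at most 4.06 RPM in the others. CDX4 and CDX2 did not separate the cells in this way: CDX4 was at 357.4 RPM in cell 6, 166.8 RPM in cell 3, 60.6 RPM in cell 2 and 17.7 RPM in cell 7. Cell 6 lacked some early mesoderm transcripts. EOMES, MESP1 and FGF17 were at 0 there, while cell 3 had EOMES at 13.4 RPM and MESP1 at 32.6 RPM. MIXL1 was at 395.2 and 610.8 RPM in cells 2 and 7, but at 19.7 RPM in cell 6 and 22.1 RPM in cell 8. NKX1-2 was at 0 in cell 2 and at 34.5 RPM in cell 3.

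The other mesoderm-like E20 cells, 1, 3, 4 and 5, in which paralogs 9 to 13 summed to 141.6 RPM or more, held other genes. In cell 3 paralogs 1 to 4 were still the largest class, at 49.0% of the HOX sum. MEIS1, a cofactor of HOX proteins, was at 68.7, 71.0, 104.5 and 27.8 RPM in E20 cells 1, 3, 4 and 5, at 21.0 RPM in cell 8 and at 5.91, 4.77 and 7.46 RPM in cells 2, 6 and 7. TCF21, a factor of mesenchyme and visceral mesoderm, was at 19.3, 60.7, 89.5 and 136.5 RPM in cells 1, 3, 4 and 5 and at most 1.36 RPM in the other 4. SNAI2, an epithelial to mesenchymal transition factor, was at 94.9, 288.9, 356.5 and 93.5 RPM in those 4 cells and at most 23.8 RPM in the others. MEIS2 did not follow the division, with 329.8 RPM in cell 3, 151.1 RPM in cell 7, 126.3 RPM in cell 2 and 114.3 RPM in cell 4. All 8 mesoderm-like cells carried HAND1, at 112.3 RPM or more. The grouping of these cells by HOX class was made after their values were seen, and the part of these other genes in it was not tested.

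**Figure D4:**
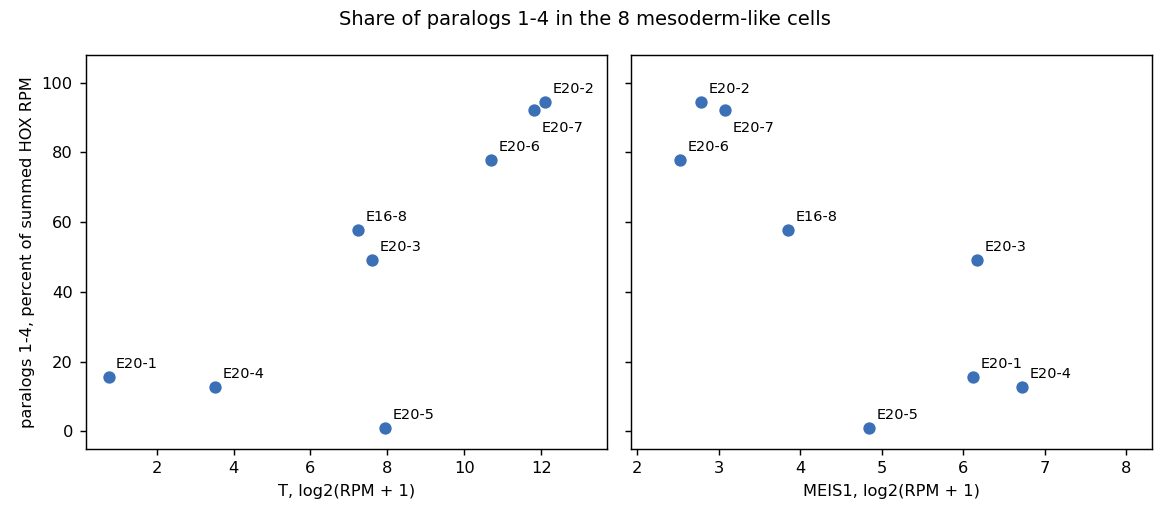
Share of paralogs 1 to 4 in the summed HOX RPM (percent) against the level of T (left) and of MEIS1 (right), both as log2(RPM + 1), in the 8 mesoderm-like cells; each point is 1 labelled cell. E20 cells 2, 6 and 7, at 77.9% or more, have the highest T and the lowest MEIS1.

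Between E16 and E20, cells are compared by the mean log2(RPM + 1) of each gene, E20 minus E16; a gene was measured where its mean reached 1 RPM in either stage, and a difference of 1, a change of 2-fold on this scale, was counted. Of the 29 measured HOX genes, 23 were higher at E20 and 0 were lower, beside 13.9% of all measured genes higher and 18.9% lower. The HOX median difference was 1.54, against -0.12 over all measured genes, and with the 5 HOX genes that had no read in a stage set to 3 reads it was 1.52. HOXB3 had a difference of 3.97, from a mean of 4.83 ± 15.9 RPM over E16 cells to 60.7 ± 67.5 RPM over E20 cells (SD, n = 11 and 8). HOXA2 (3.66), HOXB6 (3.63) and HOXA3 (2.83) were also well above 1. For each of them the SD over cells was near or above the mean at both stages, except HOXB6 at E20, with 46.1 ± 37.6 RPM (SD, n = 8).

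The differences were graded by number and by cluster. The median was 2.29 for paralogs 1 to 4, with 10 of 11 measured genes counted, 1.54 for paralogs 5 to 8, with 8 of 9, and 1.44 for paralogs 9 to 13, with 5 of 9. As ratios of the mean summed level, these classes were 28.4, 6.92 and 4.20 times higher at E20. By cluster the median was 1.72 in A (7 of 9 counted), 2.29 in B (9 of 9), 1.20 in C (4 of 6) and 1.14 in D (3 of 5). HOXC11, at 10.99 ± 12.4 RPM over E20 cells and 5.50 ± 2.40 RPM over E16 cells (SD, n = 8 and 11), and HOXD10, with no read at E20, were among the 6 not counted. Among germ-cell-like cells alone, 1 at E20 and 10 at E16, 5 of 10 measured HOX genes were counted as higher, beside 21.7% of all measured genes, and the median was 1.24, against -0.53 over all genes. Within the code that E20 cell 8 shares with E16 the HOX median was -0.097, against -0.57 over all measured genes, and 5 of 14 measured HOX genes were counted as higher, beside 20.7% of all genes. Both of these rest on 1 cell at E20.

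**Figure D5:**
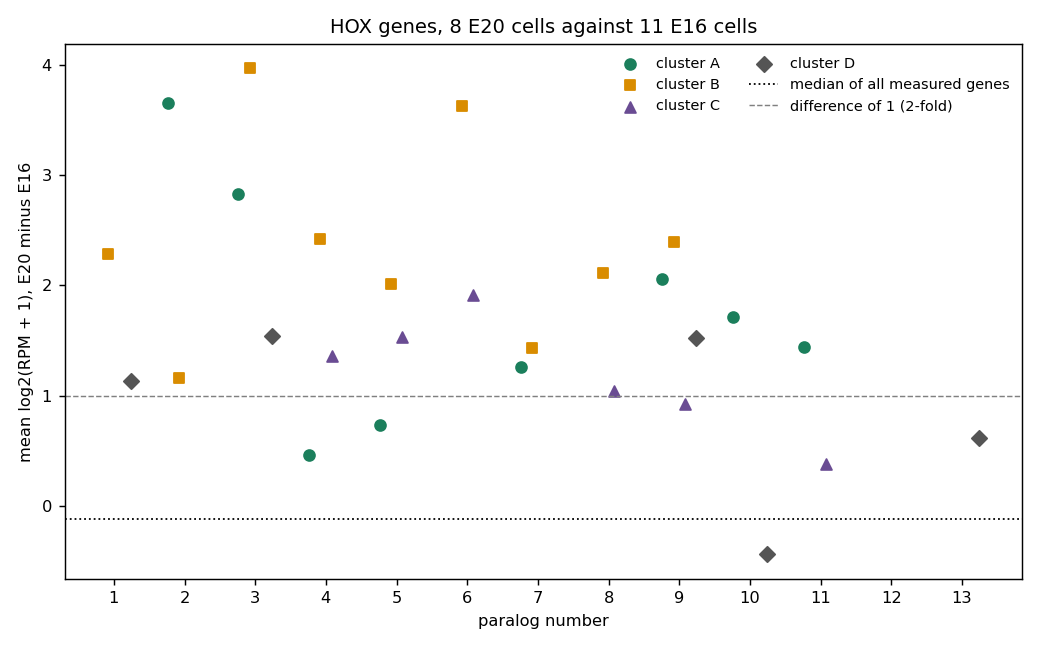
Difference of mean log2(RPM + 1) between 8 E20 and 11 E16 cells for 28 measured HOX genes, by paralog number and cluster; the dashed line marks a difference of 1 and the dotted line the median of all measured genes, -0.12. HOXB3, HOXA2 and HOXB6 lie between 3.63 and 3.97, and cluster B lies above 1 throughout.

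Against the germ-cell-like cells of the embryo, the mesoderm-like cells had higher mean HOX sums in all classes. The groups were drawn from other genes of the same cells, so the comparison describes them. The summed level was 539.6 RPM or more in 6 of 8 mesoderm-like cells, with E20 cell 5 at 182.9 RPM and E16 cell 8 at 323.5 RPM; the 17 germ-cell-like embryo cells ran from 5.72 RPM through a median of 18.4 RPM to 283.7 RPM in E16 cell 3. Of 29 measured HOX genes, 23 were higher by 1 or more and 0 lower, beside 20.9% and 11.6% of all measured genes. The median difference was 1.73, against 0.15 over all genes; without E20 cell 5 it was 1.75, with 23 of 30 measured HOX genes higher. The gap was widest at the low numbers: mean sums were 552.9 and 4.37 RPM for paralogs 1 to 4, 150.5 and 13.2 RPM for 5 to 8, and 132.5 and 36.5 RPM for 9 to 13. The ranges of these sums over cells overlapped in each class. For paralogs 9 to 13 they ran from 14.9 to 337.7 RPM in mesoderm-like cells and from 3.2 to 231.7 RPM in the others. HOXB3 averaged 67.2 ± 63.2 RPM in mesoderm-like cells and 0.0623 ± 0.139 RPM in germ-cell-like embryo cells (SD, n = 8 and 17). HOXB6 averaged 58.5 ± 36.6 and 0.180 ± 0.232 RPM.

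Where germ-cell-like cells did hold HOX transcripts at 15 RPM, these were seldom of paralogs 1 to 4. A member of paralogs 1 to 4 reached 15 RPM in 2 of 26 germ-cell-like cells, HOXD3 in the E14 cell and HOXC4 in E36 cell 5. A member of paralogs 9 to 13 did so in 11 of the 26, and one of paralogs 5 to 8 in 10. In the mesoderm-like cells the corresponding numbers were 7, 6 and 7 of 8. HOXC11 was the only member of paralogs 9 to 13 at 15 RPM in E13 cell 3, E20 cell 8, E36 cell 2 and E55 cell 1. Without HOXA7 and HOXC11, any member reached 15 RPM in 8 of the 26 germ-cell-like cells and in all 8 mesoderm-like cells. The strongest germ-cell-like embryo cell was E16 cell 3, with HOXA10 at 143.4 RPM, HOXA9 at 56.0 RPM, HOXD10 at 27.6 RPM, HOXA7 at 26.2 RPM and HOXA5 at 21.9 RPM. It carried 11 of 14 germ cell markers and 2 of 10 mesoderm markers at 15 RPM, within the range of the other E16 germ-cell-like cells. The remaining 9 germ-cell-like E16 cells had HOXA10 at most at 35.1 RPM, in cell 11, and 7 of those 9 had no HOX gene at 15 RPM. At E13, HOXA9 was at 42.5 RPM in cell 2 and HOXA10 at 21.2 RPM in cell 1. The E14 cell had HOXA9 at 30.3 RPM, HOXB9 at 15.2 RPM and HOXD10 at 9.52 RPM.

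HOXA7 and HOXC11 were exceptions to this sparse pattern. Each had reads in 33 of 34 cells, with medians of 7 and 11.5 reads. HOXC11 was higher in the 3 E13 cells, at 16.9, 52.9 and 27.7 RPM, than in any of the 11 E16 cells, where it ran from 1.34 through 4.78 to 9.83 RPM. HOXA7 measured 19.1, 32.2 and 16.9 RPM at E13 and ran from 0.737 through 2.55 to 26.2 RPM at E16. The E13 cells were also the shallowest, with 472189 to 775709 reads, and their HOXC11 values rest on 8, 41 and 18 reads. The part of depth in this was not tested. All 3 E13 cells carry a title code that no other stage has, so stage and code cannot be told apart here. HOXC11 averaged 12.3 ± 14.4 RPM in germ-cell-like embryo cells and 6.14 ± 4.33 RPM in mesoderm-like cells (SD, n = 17 and 8), the opposite direction to the other members of its cluster that were measured. HOXB5 and HOXB4 were also read widely, in 30 and 26 cells, but at medians of 1.27 and 1.18 RPM.

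In the gonad cells HOX levels were low again. The sums were 13.2, 35.7, 7.83, 38.9, 241.1 and 40.8 RPM in the 6 E36 cells, 63.5 RPM in the E47 cell and 143.5 and 37.7 RPM in the 2 E55 cells. Gonad minus embryo, the median over 28 measured HOX genes was -0.42, against -0.17 over all genes, and with the 8 that had no read in a group set to 3 reads it was -0.32. Of the 28 genes, 5 were lower by 1 or more and 0 higher, beside 15.1% of all measured genes lower and 7.62% higher, so the share of HOX genes was near the background. Among the 5 were HOXA2, HOXA10, HOXB3 and HOXB6. HOXA2 had no read in any gonad cell, which allows up to 0.198 RPM over the 9 cells. Without the E20 cells 1 HOX gene was lower and the median was 0.12; among germ-cell-like cells alone it was also 1, with a median of 0.30. Against only the 2 E17 cells, the embryo cells that share a title code with the gonad cells, 0 of 13 measured HOX genes were lower and 5 were higher, with a median of 0.64 against 0.24 over all genes.

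HOX transcripts at 15 RPM or more were spread unevenly over the gonad cells, from 0 to 6 genes per cell. In E36 cell 5, HOXA9 was at 77.1 RPM, HOXA5 at 54.7 RPM, HOXC9 at 33.6 RPM, HOXA7 and HOXC4 both at 25.8 RPM and HOXD9 at 20.0 RPM. In the other 5 E36 cells HOXA5, HOXC9 and HOXD9 were at 0. Of 12 gonadal somatic markers, E36 cell 5 carried 7 at 15 RPM, the other E36 cells 1 to 4, and its part in the HOX values was not tested. The E47 cell carried 10 such markers, with a summed level of 20417.9 RPM, led by INSL3 (15703.2 RPM), CYP17A1 (3053 RPM) and STAR (804.5 RPM). It also carried 13 of 14 germ cell markers at 15 RPM, which summed to 2961.2 RPM. The E47 cell thus went partly against the name germ-cell-like. HOXA7 (16.3 RPM) was its only HOX gene at 15 RPM. E36 cell 4 had HOXA9 at 35.8 RPM and no other HOX gene above 2.31 RPM. E55 cell 1 had HOXA7 at 71.7 RPM, HOXB7 at 27.7 RPM and HOXC11 at 24.6 RPM.

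Most measured genes on the lists of cofactors, of CDX, ParaHox and EVX genes and of axis signalling were also higher at E20 than at E16. This did not hold for the chromatin regulators given below, of which 1 of 14 was higher. The counts of all these lists stand beside the 13.9% of all measured genes that were higher and the 18.9% that were lower. Of 8 measured PBX, MEIS and PKNOX genes, 6 were higher at E20 by 1 or more and 0 lower, with a median of 1.51. MEIS2 averaged 96.6 ± 111.6 RPM at E20 and 6.83 ± 21.8 RPM at E16, and MEIS1 38.9 ± 37.6 and 5.40 ± 3.72 RPM (SD, n = 8 and 11). PBX2 (-0.60) and PKNOX1 (-0.44) were below 0. Of 8 CDX, ParaHox and EVX genes, 4 were measured and all 4 were higher. EVX1, which flanks cluster A, had a difference of 4.13, CDX1 3.83, CDX2 3.39 and CDX4 3.28, while EVX2, GSX2 and PDX1 had no read at either stage. Of 11 measured genes of retinoic acid and axis signalling, 6 were higher and 0 lower. WNT5A led them, with 416.7 ± 345.0 RPM at E20 and 31.4 ± 66.4 RPM at E16. RARA, a retinoic acid receptor (-0.83), and NKX1-2 (-0.13) were below 0. CYP26A1, which degrades retinoic acid, was at 20.5 ± 39.7 and 18.2 ± 52.6 RPM.

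Counts for chromatin regulators and neighbouring genes were small. Of 14 Polycomb and trithorax genes, which keep HOX clusters silent or active, RNF2 was higher at E20 (1.09), JARID2 (-1.71) and CBX7 (-2.31) were lower, and the median was -0.33. CBX7 averaged 11.2 ± 13.7 RPM at E16 and 0.0799 ± 0.226 RPM at E20 (SD, n = 11 and 8). Of 22 measured genes that lie beside the 4 clusters, 2 were higher and 5 were lower, shares near the 13.9% and 18.9% of all measured genes, and the median was 0.073. The 2 were SKAP2, beside cluster A (1.19), and KIAA1715, beside cluster D (1.43). Around cluster B, all of whose 9 measured HOX genes were higher, 0 of 5 measured neighbours were.

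Genes outside the clusters whose level was most like the HOX sum were listed by rank. Over the 34 cells, Pearson's r between log2(RPM + 1) and the log2 summed HOX level was 0.86 for EFS, 0.80 for DUSP6, 0.79 for both HAPLN1 and LDB2, 0.77 for MLLT3 and 0.76 for RSPO3, BCAT1, IGDCC3, FST and MSX1. The median over the 7180 genes compared was 0.034. Of these 10 genes, 4 were also among the 10 leading genes of the mesoderm-like cluster, and all points share that division of the cells.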

How the data were processed

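Single-cell SC3-seq of 34 cynomolgus monkey cells was analysed. The authors deposited 1 table of log2 values, log2(RPM + 1), found from the values themselves: back-transformed columns summed to between 992085 and 995711. Per the submitters' processing notes, cutadapt 1.3, TopHat 1.4.1 and Cufflinks 2.2.0 were used, with no role stated; build, annotation and strand: not given in the sources used here. Only 3′ ends were read, so RPM was not divided by length, levels of different genes depend on how well their 3′ ends are annotated, and overlapping or antisense transcripts cannot be told apart. Reads per cell were recovered from the step between low values, 99.8% to 100.0% of which were whole within 0.1 read. The calculations used Python 3.11.15 with numpy 2.4.6, pandas 2.3.3 and scipy 1.17.1, and were tested on simulated data. Clusters came from Ward linkage on 2000 genes at 15 RPM or more in at least 3 cells, without HOX genes. Differences are of mean log2(RPM + 1) over cells; no test was made. Members and gene lists were chosen with earlier results of these data known. Any member may be named, those at 15 RPM in at least 3 cells with values; other genes come from set lists or are the 10 most correlated with the HOX sum at a mean of 20 RPM or more. 1 member enters the sums and counts but is not reported here by itself. RefSeq gave overlaps of gene models only.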

Additional observations from a re-analysis of the deposited data

Results flagged for a closer look

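Dixon's ratio, the distance of an extreme cell from its neighbour as a share of the whole range, was computed for the 8 E20 cells and the 6 E36 cells, and compared with its 95% critical values of 0.526 and 0.625. Of 38 sets of values screened 15 stood out. The critical values assume normally distributed data, but HOX levels were uneven between cells, and many genes had no read in most cells. The count of 15 therefore cannot be set against a chance rate, and the flags only mark cells for a closer look. At E20, cell 3 lay above the rest in the cluster C sum (147.0 RPM) and in HOXC6 (45.4 RPM). HOXA3 stood out in cell 7 (140.8 RPM), HOXA7 in cell 6 (81.0 RPM), HOXB1 in cell 2 (198.7 RPM) and HOXC11 in cell 8 (40.2 RPM). At E36 every such value came from cell 5. They were the HOX sum (241.1 RPM), the number of HOX genes at 15 RPM (6), the sums of clusters A (157.9 RPM), C (61.5 RPM) and D (20.0 RPM), those of paralogs 1 to 4 (26.2 RPM), 5 to 8 (82.5 RPM) and 9 to 13 (132.4 RPM), and HOXD9 alone (20.0 RPM). These sums share reads, so they are not separate signs. In addition, HOXA13, a row of the table without a human symbol and so outside the 35 members, reached 118.8 RPM in E20 cell 4.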

How the results depend on the processing

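The cell values are few, each stage is 1 sample, and means of log2 values over cells that are mostly at 0 depend on how they are taken. For E20 minus E16, the HOX median (1.54) was 0.67 with a pseudocount of 10 RPM, 2.75 as a ratio of mean RPM and 0.82 with medians over cells. The number of genes higher (23) was 8 with a pseudocount of 10 RPM, 13 with medians over cells and 5 within germ-cell-like cells. Within the code that E20 cell 8 shares with E16 the median was -0.097 (all genes -0.57), with 5 genes higher; HOXA2 (-0.47), HOXA9 (-0.89), HOXA10 (-0.84), HOXB3 (-0.11) and HOXB6 (-0.39) changed sign there, and HOXA9 (-0.89) and HOXA10 (-0.63) within germ-cell-like cells. For gonad minus embryo, the median (-0.42) was -1.42 as a ratio of means, 0 with medians over cells, 0.64 within the code shared with E17, 0.30 in germ-cell-like cells and 0.12 without E20 cells, an alternative added after seeing the data. The number lower (5) was 1 with a pseudocount of 10 RPM, 18 as a ratio of means, 0 with medians over cells, 0 within the shared code, where 5 of 13 were higher instead (all-gene median 0.24), 1 in germ-cell-like cells and 1 without E20 cells. For mesoderm-like minus germ-cell-like embryo cells, the median (1.73) was 0.68 with a pseudocount of 10 RPM, 3.03 as a ratio of means and 0.96 with medians over cells, with 9 and 14 genes higher under the first and the last. With average linkage, which added E17 cell 2 to the mesoderm-like cells, the median was 1.52 and 20 of 29 measured genes were higher. The cause of these shifts was not tested. Leaving out each cell in turn, the E20 minus E16 median ran from 1.38 to 1.77 and its count from 19 to 24. Median-of-ratios scaling moved the median of all genes by 0.070 for E20 minus E16. Of 1543 alternatives for single genes, 7 changed sign and 18 moved by more than the spread between cells. No paired analysis was possible because no result comes from a test and the cells carry no shared replicate numbers. A level of 15 RPM is about 7 reads in the shallowest cell, so low genes there were not detectable at this depth.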

Other observations

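HOXA13, the last gene of cluster A, had a row in the table without a human symbol on chromosome 3 and was therefore not counted among the members. It reached 15 RPM in 4 of 34 cells, all at E20: cell 1 (37.1 RPM), cell 3 (23.7 RPM), cell 4 (118.8 RPM) and cell 5 (85.1 RPM). These are the same 4 cells in which HOXA9 and HOXA10 were detected at E20. In E20 cells 2, 6 and 7, where paralogs 1 to 4 made up most of the HOX sum, it was at 0, 0 and 0.933 RPM. HOXD11, another row without a human symbol, had no read in any cell. HOXD4 and HOXD8 are not analysed here.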
